A study of Homo sapiens with 4 samples.

Results

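The genes described here encode the cytoplasmic actins and 8 actin-binding proteins. The members are the 10 genes ACTB, ACTG1, PFN1, CFL1, TMSB4X, TMSB10, TAGLN2, MYL6, TPM3 and ACTN4, found by their GENCODE 29 gene symbol. Each was listed with 1 transcript in every library, so 10 of the 16292 transcripts in the files belong to them, and all 10 were among the 9612 genes tested. They were picked out by gene name, with earlier results of these data known.

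Ribosome footprints (Ribo-seq, which reads the stretches of mRNA protected by ribosomes) were measured in the human cell line HEK293, derived from embryonic kidney. The groups were RPL4 mutant with erythromycin, RPL4 mutant without it, wild type with erythromycin and wild type without it, with 1 library in each and no replicate. Erythromycin is a macrolide antibiotic that sits in the exit tunnel of the bacterial ribosome, and RPL4 is a protein of the large subunit that lines the exit tunnel of the cytosolic ribosome. The labels' protocol names stable lines with GFP, wild type RPL4 or RPL4 without its loop, infected with lentivirus carrying a short hairpin RNA (to RPL4, or scrambled), and treated with cycloheximide or lactimidomycin before lysis. Which of these each library had, how many clones a line came from and the erythromycin dose are not given in these sources.

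Library totals were inferred from the RPKM values. They were 993461 reads in the mutant with erythromycin, 604506 in the mutant without it, 2555613 in wild type with it and 2965243 in wild type without it. RPL4 itself was at 1439 and 1707 RPKM (reads scaled by coding length and library size) in the mutant with and without erythromycin, against 2586 and 2515 RPKM in wild type. Reads from a transgenic RPL4 would also count towards these values. Of the HEK293 markers, VIM, KRT8 and KRT18 were at 202 to 1100 RPKM in all 4 libraries, while PAX2 stayed at or below 2.69 RPKM and NEFM at or below 0.732 RPKM. Of 7 markers of other cell types, PTPRC (blood) and MYH11 (smooth muscle) were listed at 0 in all 4 libraries. COL1A1 (fibroblasts) was at 3.89 to 6.68 RPKM and DES (muscle) at 0.712 to 5.85 RPKM, while CD3E (T cells), ALB (liver) and PECAM1 (endothelium) were at or below 1.61 RPKM. The sum of the 7 was 6.67 and 12.2 RPKM in the mutant with and without erythromycin, against 5.66 and 8.53 RPKM in wild type, and its part in the results was not tested.

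Actin is the monomer of microfilaments, which shape the cell, carry its movement and divide it. Monomers join the filament at one end and leave at the other, and binding proteins set the pace: profilin (PFN1) loads monomers onto growing ends, thymosins (TMSB4X, TMSB10) hold monomers in reserve, and cofilin (CFL1) severs and disassembles old filaments. Transgelin-2 (TAGLN2) and tropomyosin (TPM3) bind along filaments, alpha-actinin-4 (ACTN4) crosslinks them, and MYL6 is the essential light chain of the myosin that pulls on them. Beta and gamma actin (ACTB, ACTG1) are folded by the chaperonin CCT, and their genes are textbook targets of the transcription factor SRF, whose partner MRTF is held back by free actin monomers.

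The coding sequences of the paralogs are shown because they decide which footprints can be told apart. The listed ACTB transcript (ENST00000331789) lies on chromosome 7, minus strand, 5527147 to 5530709 (GRCh38), and that of ACTG1 (ENST00000575842) on chromosome 17, minus strand, 81509989 to 81512781. Their coding parts have 1128 bases each, stop codon included, and differ at 99 bases, 94 of them at the third position of a codon, and in 4 of 375 amino acids. The first 60 coding bases from GENCODE 29 follow, with bases that differ between the genes in capitals.
ACTB: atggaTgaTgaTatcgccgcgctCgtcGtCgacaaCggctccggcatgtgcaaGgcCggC
ACTG1: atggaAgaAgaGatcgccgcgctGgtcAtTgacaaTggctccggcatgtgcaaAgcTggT
The longest stretch without a difference was 59 bases. Footprint length is not stated, so windows of 28 bases stood in for it. Of 1101 windows, 103 were identical at the same place in both genes.

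The thymosins are short, with 135 coding bases each, shown whole from GENCODE 29 with the differing bases in capitals. TMSB4X (ENST00000380636) lies on chromosome X, plus strand, 12975110 to 12977226, and TMSB10 (ENST00000233143) on chromosome 2, plus strand, 84905625 to 84906675.
TMSB4X: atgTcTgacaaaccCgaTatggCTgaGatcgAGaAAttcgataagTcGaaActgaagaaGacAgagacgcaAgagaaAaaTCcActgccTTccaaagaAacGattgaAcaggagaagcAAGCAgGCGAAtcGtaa
TMSB10: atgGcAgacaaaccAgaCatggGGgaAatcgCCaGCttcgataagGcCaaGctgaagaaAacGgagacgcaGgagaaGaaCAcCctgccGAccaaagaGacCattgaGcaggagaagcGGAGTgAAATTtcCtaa
They differ at 37 bases and in 11 of 44 amino acids, and 0 of 108 windows of 28 bases were shared at the same place.

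Members also share windows with pseudogenes and relatives among the GENCODE 29 transcripts. For TMSB4X, 108 of 108 windows occurred in transcripts of other genes (6 genes, with 95 of the windows in TMSB4XP6), against 32 of 108 for TMSB10 (only TMSB10P1). The share was 54.0% for ACTB, with 45 other genes, 38.6% for ACTG1, 40.2% for PFN1, 40.4% for TAGLN2, 34.3% for TPM3, 23.0% for CFL1, 20.9% for MYL6 and 14.8% for ACTN4. How reads that map to several places were treated is not stated. Their split between such genes is therefore uncertain. TPM4 shares windows with TPM3. Its level was 201 and 135 RPKM in the mutant with and without erythromycin, against 163 and 200 RPKM in wild type. The muscle actins were low: ACTG2 was at 23.1 and 8.78 RPKM in the mutant with and without erythromycin, against 10.7 and 1.79 RPKM in wild type, ACTA1 and ACTC1 were at or below 5.84 RPKM, and ACTA2 was listed at 0.

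The listed transcript sets the length in RPKM. It was the gene's longest coding transcript for 9 members, with PFN1 (140 codons listed, 165 in the longest) the exception. For MYL6 the listed form (ENST00000536128, chromosome 12, 56158362 to 56160795) has 238 codons against 151 in the form that GENCODE 29 tags as principal, and 290 of its 717 coding bases lie outside that form. For CFL1 (ENST00000534769, chromosome 11, 65855241 to 65861421), 117 of 615 bases lie outside it, and for TAGLN2 (ENST00000368096, chromosome 1, 159918107 to 159923717), 63 of 663. Levels of these 3 genes depend on that choice, and ratios between libraries of the same transcript do not depend on its length. The median coding length was 690 bases over the members and 1311 bases over the 9544 tested genes with a known length.

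By level, most members were among the genes with the most footprints per length in these cells. PFN1 stood highest of the 10 in all 4 libraries, with 5366 RPKM in the mutant with erythromycin, 5115 RPKM in the mutant without it, 4869 RPKM in wild type with it and 5934 RPKM in wild type without it, which placed it between rank 19 and rank 31 of the 9612 genes. TMSB4X followed in every library with 4332, 4828, 4864 and 5109 RPKM in the same order of libraries. The counting intervals of PFN1 and TMSB4X overlapped in the mutant without and in wild type with erythromycin, and not in the other 2 libraries.

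ACTB was at 2941 RPKM in the mutant with erythromycin, 3987 RPKM in the mutant without it, 3743 RPKM in wild type with it and 4799 RPKM in wild type without it. ACTG1, the less abundant isoform, was at 1853, 2665, 2397 and 3353 RPKM in the same order. For both actins the mutant with erythromycin was lowest and wild type without it highest. TMSB10 was at 3743 RPKM in the mutant with erythromycin, 3149 RPKM in the mutant without it, 3991 RPKM in wild type with it and 3223 RPKM in wild type without it. TMSB10 stood above ACTB with erythromycin and below it without, in both genotypes. Its counting interval overlapped that of ACTB in wild type with erythromycin, that of TMSB4X in the mutant with erythromycin, and that of ACTG1 in both libraries without the drug.

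CFL1 was at 1511, 1366, 1809 and 1612 RPKM and TAGLN2 at 1392, 1325, 1743 and 1575 RPKM in that order of libraries, with overlapping intervals in all 4. MYL6 was at 1102, 863, 868 and 850 RPKM, highest in the mutant with erythromycin. TPM3 (chromosome 1, 154167465 to 154192211) was at 217, 185, 253 and 219 RPKM. ACTN4 (chromosome 19, 38647670 to 38731583) was lowest at 69.9, 85.3, 82.5 and 93.6 RPKM, and it rested on 190, 141, 577 and 759 reads. From CFL1 down, the order of the members was the same in all 4 libraries.

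**Figure D1:**
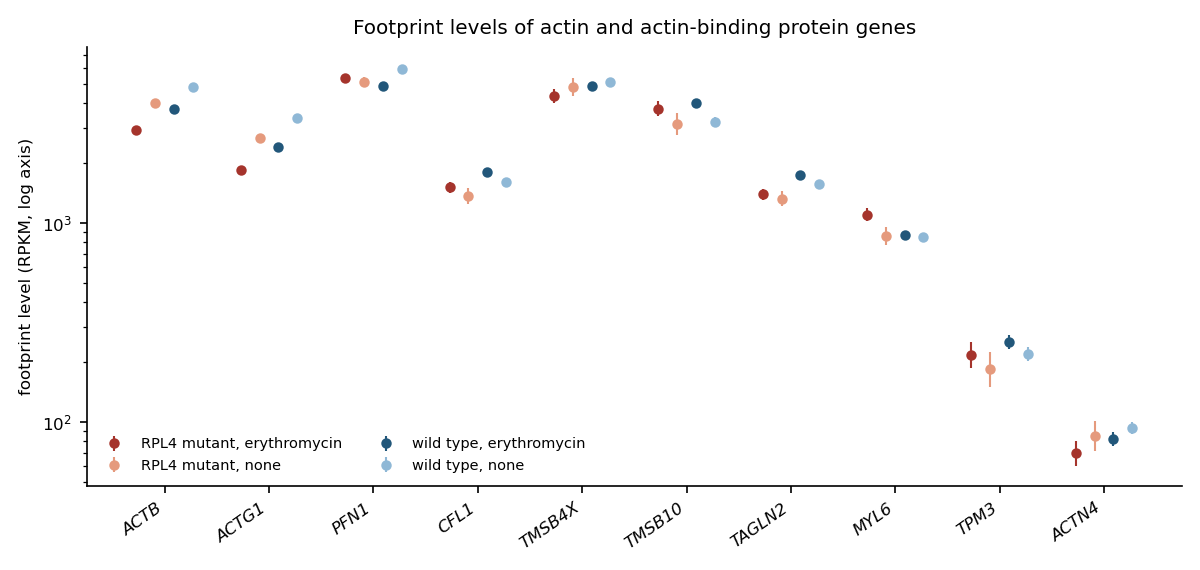
Footprint level in RPKM (log axis) of each member in the 4 libraries, with 95% exact Poisson intervals from the reads. ACTB is lowest at 2941 RPKM in the mutant with erythromycin and highest at 4799 RPKM in wild type without it, and TMSB10 does not follow that order.

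Counting the reads themselves, the 10 genes took 1.18% (95% Wilson interval 1.16% to 1.2%) of the inferred total in the mutant with erythromycin. In the mutant without it they took 1.35% (1.32% to 1.38%). In wild type they took 1.35% (1.34% to 1.37%) with erythromycin and 1.59% (1.58% to 1.61%) without it. The 2 actins took 0.541% and 0.75% in mutant cells with and without the drug, against 0.693% and 0.919% in wild type. All intervals here cover counting error only. These values are relative to each library, so a lower share does not show fewer footprints per cell. The libraries are pools of cells, so a change in some cells and a change in all cannot be told apart. As no mRNA library was analysed here, the level of an mRNA and its translation cannot be told apart either.

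The comparison of cells with and without erythromycin asked how the drug goes with footprint levels in each genotype. The cytoplasmic actins were lower with erythromycin in both genotypes, while CFL1, TMSB10, TAGLN2, MYL6 and TPM3 were above 0 in both, not all with intervals that excluded 0. Values are log2 ratios of RPKM plus 1, centred on the median tested gene, with the 95% counting interval of the reads in brackets. ACTG1 was at −0.58 [−0.67, −0.49] in the mutant and −0.47 [−0.51, −0.43] in wild type, and ACTB at −0.49 [−0.57, −0.42] in the mutant and −0.34 [−0.38, −0.31] in wild type.

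A threshold of 0.32 on the log2 scale was used for counts. In the mutant 3 of 10 members, ACTB, ACTG1 and ACTN4, were lower with erythromycin by at least 0.32, where 23.9% of all tested genes were, and 16.4% of the 1721 abundant genes, which averaged 100 RPKM or more. In wild type 2 of 10 were, ACTB and ACTG1, where 18.1% of all tested and 9.88% of abundant genes were. Higher by at least 0.32 were 0 members in the mutant (26.8% of tested and 12.0% of abundant genes) and 1 in wild type, TMSB10 (17.5% and 12.1%). ACTN4, TMSB10 and MYL6 lay close to the threshold, and ACTN4, which averaged 82.8 RPKM, was not among the abundant genes. Under 6 of 8 alternatives the mutant had 2 members lower and wild type 0 higher, and under 4 of 8 MYL6 was higher in the mutant (0.33 to 0.35). In reads thinned to the smallest library wild type had 4 members lower, ACTB, ACTG1, PFN1 (−0.38) and ACTN4 (−0.33), and its 1 higher member was TPM3 (0.59). No member reached 2-fold in either direction, which 3.39% of tested genes did as lower and 6.22% as higher in the mutant, and 1.54% and 1.73% in wild type. The other members' values lay within the threshold, and the median member was at 0.02 in the mutant and −0.00 in wild type, with the median tested gene at 0 by construction.

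ACTB and ACTG1 were the members lower by at least 0.32 in both genotypes, which 4.87% of all tested genes were, and 26 of the 1721 abundant genes (1.51%). In thinned reads ACTN4 was as well, at −0.49 in the mutant and −0.33 in wild type, and ACTB in wild type lay at the threshold (−0.32). Higher by as much in both were 0 members, 6.15% of tested and 2.73% of abundant genes. The 2 comparisons share no library. By the weaker of its 2 responses, ACTG1 was the 5th lowest and ACTB the 24th lowest of those 1721 genes.

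In limma's additive model of genotype and treatment, which sets 2 libraries against 2 and has 1 residual degree of freedom, 0 of 10 members passed for erythromycin at an adjusted p of 0.05, where 0.25% of tested genes did (0.239% higher and 0.0104% lower). At an unadjusted p under 0.05 there were 2 members, ACTB and ACTG1, both lower, where 6.18% of tested genes reached it and 2.4% did so as lower. With no variance trend or with treatment alone in the model there were 0 members, and in genes averaging 20 RPKM or more there were 3. The ACTG1 value was −0.52 (SE 0.137, limma, adjusted p = 0.219) and the ACTB value −0.42 (SE 0.127, limma, adjusted p = 0.4). With reads thinned to the smallest library in 1 random draw, ACTG1 fell by 0.53 (limma, adjusted p = 0.0488), and over all alternatives its adjusted p ran from 0.0488 to 1.0.

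**Figure D2:**
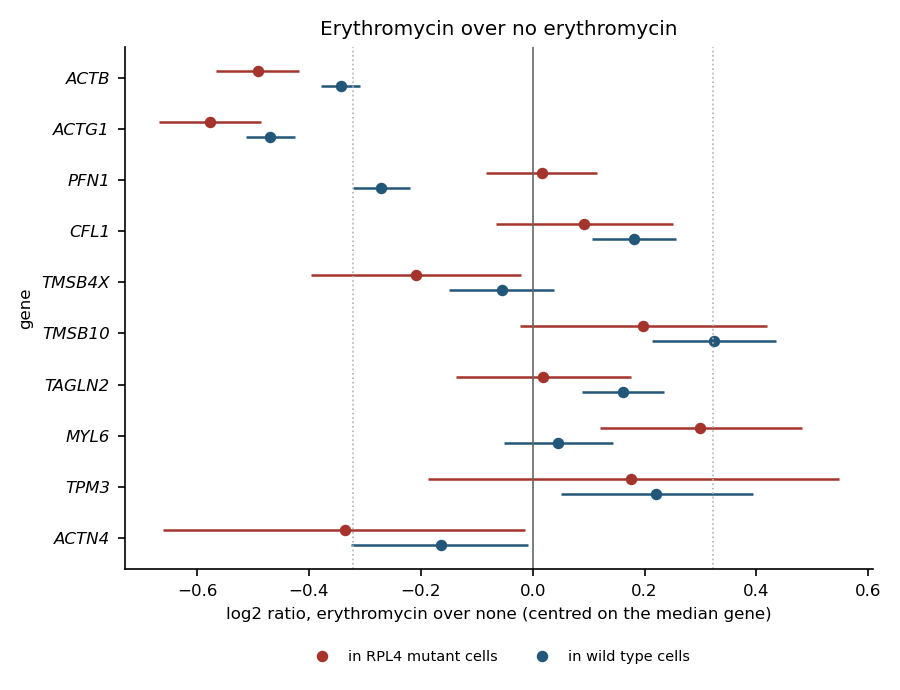
Log2 ratio of erythromycin over none for each member in RPL4 mutant and wild type cells, as points with 95% counting intervals, with dotted lines at 0.32 and −0.32. ACTB and ACTG1 lie left of the dotted line in both genotypes, and TMSB10, TPM3, CFL1, TAGLN2 and MYL6 lie right of 0 in both.

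The monomer-binding proteins differed among themselves in sign. TMSB10 was at 0.20 [−0.02, 0.42] in the mutant and 0.32 [0.21, 0.43] in wild type. TMSB4X was at −0.21 [−0.40, −0.02] in the mutant and −0.06 [−0.15, 0.04] in wild type. PFN1 was at 0.02 [−0.08, 0.12] in the mutant and −0.27 [−0.32, −0.22] in wild type. The interval excluded 0 in wild type only for TMSB10 and PFN1, and in the mutant only for TMSB4X.

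CFL1, which severs filaments, was at 0.09 [−0.07, 0.25] in the mutant and 0.18 [0.11, 0.26] in wild type. The filament-binding TAGLN2 was at 0.02 [−0.14, 0.18] in the mutant and 0.16 [0.09, 0.23] in wild type, and TPM3 at 0.18 [−0.19, 0.55] in the mutant and 0.22 [0.05, 0.39] in wild type. These 3 had intervals above 0 in wild type and spanning 0 in the mutant, where the reads were fewer. The myosin light chain MYL6 was at 0.30 [0.12, 0.48] in the mutant and 0.05 [−0.05, 0.14] in wild type, and the crosslinker ACTN4 at −0.34 [−0.66, −0.01] in the mutant and −0.16 [−0.32, −0.01] in wild type.

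**Figure D3:**
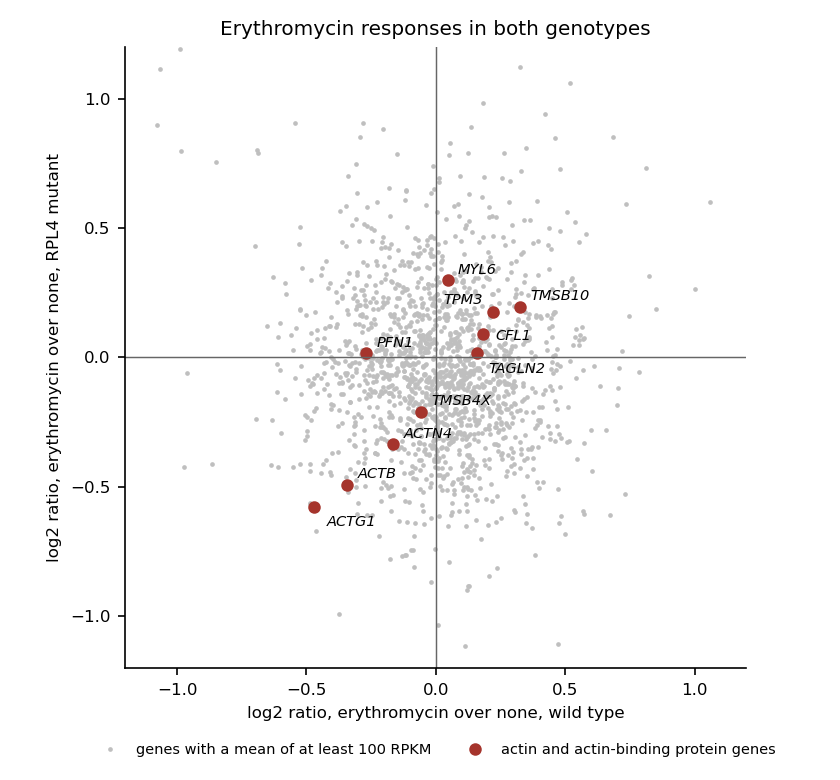
Log2 ratio of erythromycin over none in the RPL4 mutant (vertical) against that in wild type (horizontal) for the members and for abundant genes, of which 44 of 1721 lie outside the axes. ACTB and ACTG1 lie low on both axes, PFN1 is below 0 only in wild type, and MYL6 is above 0 mainly in the mutant.

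The difference between the genotypes' responses (mutant minus wild type) was above 0 for PFN1 at 0.29 [0.18, 0.40] and MYL6 at 0.25 [0.05, 0.46], and below 0 for ACTB at −0.15 [−0.23, −0.07] and ACTG1 at −0.11 [−0.21, −0.01]. The other 6 members had intervals that spanned 0. How many of all tested genes had intervals that excluded 0 was not counted. No member differed by 0.32 or more, which 28.1% of tested genes did as lower and 30.5% as higher. This ended under 4 of 8 alternatives, where PFN1 was at 0.34 to 0.38. MYL6 passed as well when centred on abundant genes (0.33) and in thinned reads (0.36), where TPM3 was at −0.48. With 1 library a group this difference has no replicate check.

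Ratios of members within a library do not depend on how libraries are scaled. ACTB over ACTG1, per length, was 1.59 [1.5, 1.68] in the mutant with erythromycin and 1.5 [1.41, 1.59] in the mutant without it, and 1.56 [1.52, 1.61] in wild type with it and 1.43 [1.4, 1.47] in wild type without it. The intervals overlapped in the mutant and did not in wild type.

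TMSB4X over TMSB10 was 1.16 [1.03, 1.31] in the mutant with erythromycin and 1.53 [1.31, 1.8] in the mutant without it, and 1.22 [1.13, 1.31] in wild type with it and 1.59 [1.48, 1.7] in wild type without it. In wild type the intervals did not overlap, and in the mutant the upper end of one and the lower end of the other were both 1.31. TMSB10 over ACTB was 1.27 [1.16, 1.4] and 0.79 [0.692, 0.898] in mutant cells with and without the drug, against 1.07 [1.01, 1.13] and 0.672 [0.634, 0.711] in wild type. CFL1 over ACTB was 0.514 [0.477, 0.553] and 0.343 [0.311, 0.377] in mutant cells, against 0.483 [0.464, 0.504] and 0.336 [0.323, 0.349] in wild type. Both ratios to ACTB were higher with erythromycin in both genotypes, with intervals that did not overlap.

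PFN1 over ACTB was 1.82 [1.73, 1.93] in the mutant with erythromycin and 1.28 [1.2, 1.37] in the mutant without it, and 1.30 [1.26, 1.34] in wild type with it and 1.24 [1.2, 1.27] in wild type without it. The library of the mutant with erythromycin stood apart from the other 3. Summed over PFN1, CFL1, TMSB4X and TMSB10, the RPKM of proteins that bind monomers or disassemble filaments was 3.12 times that of ACTB plus ACTG1 in the mutant with erythromycin and 2.17 times in the mutant without it, and 2.53 times in wild type with it and 1.95 times in wild type without it. The numerator was nearly level, at 14952, 14459, 15532 and 15877 RPKM, and the denominator was 4794, 6652, 6140 and 8151 RPKM in the same order.

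**Figure D4:**
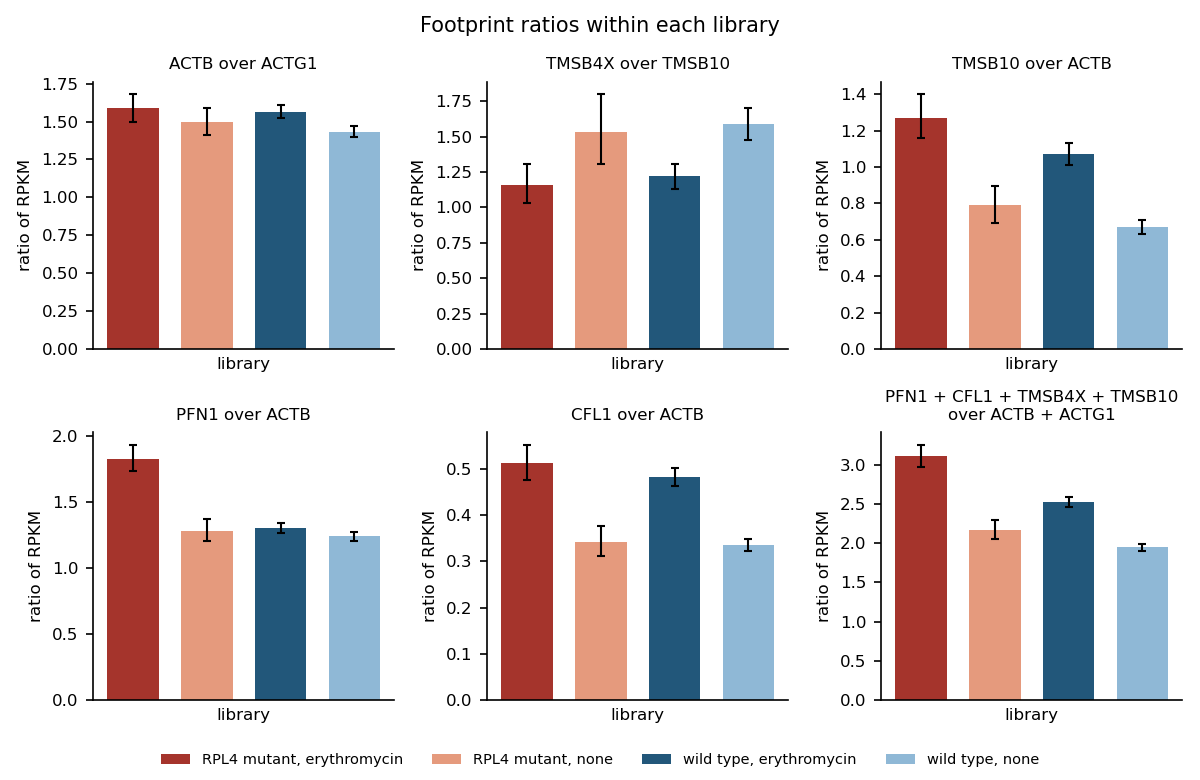
Ratio of RPKM between members in each library, with bars from 0 and 95% counting intervals. TMSB10 over ACTB and CFL1 over ACTB are higher with erythromycin in both genotypes, and PFN1 over ACTB is 1.82 in the mutant with erythromycin and 1.24 to 1.30 in the other 3 libraries.

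Setting mutant against wild type addressed how altered RPL4 goes with footprint levels in each treatment. Most members were lower in the mutant, as were most abundant genes. With erythromycin 8 of 10 members were below 0 (median −0.29), and without it 9 of 10 (median −0.20). Of the 1721 abundant genes, 68.3% were below 0 with erythromycin (median −0.19) and 66.1% without it (median −0.13).

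Lower by at least 0.32 in the mutant with erythromycin were 4 of 10 members, ACTB, ACTG1, CFL1 and TAGLN2, where 26.1% of tested and 36.7% of abundant genes were, and higher were 0 (28.5% and 11.9%). CFL1 lay at the threshold, and with a pseudocount of 5 RPKM or with RPKM as deposited 3 members were lower. Centred instead on the median abundant gene, which moves the median of all genes up by 0.19 with erythromycin and 0.13 without it, 0 members with erythromycin were lower by 0.32 and 1, MYL6, was higher. Without erythromycin 0 members were lower by 0.32, where 22.8% of tested and 22.5% of abundant genes were, and 0 were higher, where 25.1% and 9.41% were. No member reached 2-fold in either treatment, where 2.26% of tested genes were lower and 7.02% higher with erythromycin, and 3.32% and 5.29% without it. With erythromycin the members' share is near that of abundant genes.

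The actins were lower in the mutant in both treatments under each scaling tried. ACTB was at −0.41 [−0.47, −0.35] with erythromycin and −0.24 [−0.30, −0.18] without it, and ACTG1 at −0.43 [−0.51, −0.36] with it and −0.31 [−0.38, −0.23] without it. CFL1 was at −0.32 [−0.43, −0.21] and −0.21 [−0.35, −0.08], and TAGLN2 at −0.39 [−0.50, −0.28] and −0.22 [−0.36, −0.09], with the drug first. These 4 genes had intervals below 0 in both treatments in the main scaling. The share of all genes with such intervals was not counted. Centred on abundant genes, the values without erythromycin were smaller, at −0.11 for ACTB, −0.17 for ACTG1, −0.08 for CFL1 and −0.09 for TAGLN2.

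TMSB4X was at −0.23 [−0.37, −0.09] with erythromycin and −0.06 [−0.22, 0.10] without it, and TMSB10 at −0.16 [−0.31, −0.01] with it and −0.01 [−0.21, 0.19] without it. TPM3 was at −0.28 [−0.53, −0.04] with erythromycin and ACTN4 at −0.30 [−0.55, −0.06], and without it both had intervals that spanned 0. Without erythromycin the sign of TMSB4X, TMSB10 and ACTN4, and with it that of TMSB10, turned positive when centred on abundant genes. PFN1 was at 0.08 [0.01, 0.15] with erythromycin and −0.19 [−0.27, −0.10] without it. MYL6 was the member highest in the mutant relative to wild type, at 0.28 [0.16, 0.41] with erythromycin and 0.05 [−0.12, 0.21] without it.

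In limma's additive model 0 of 10 members passed for genotype over all genes tested, where 1.95% of genes did (1.66% higher and 0.281% lower, that is 160 and 27 genes, or 191 and 5 when centred on abundant genes). At an unadjusted p under 0.05 there were 2 members, ACTB and ACTG1, both lower, where 12.4% of tested genes reached it and 5.52% did so as lower, and 0 members when centred on abundant genes. The ACTG1 value was −0.37 (SE 0.137, limma, adjusted p = 0.256) and the ACTB value −0.32 (SE 0.127, limma, adjusted p = 0.292). The other 8 members had adjusted p from 0.438 to 0.901 (limma), with values between −0.30 for TAGLN2 and 0.17 for MYL6.

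**Figure D5:**
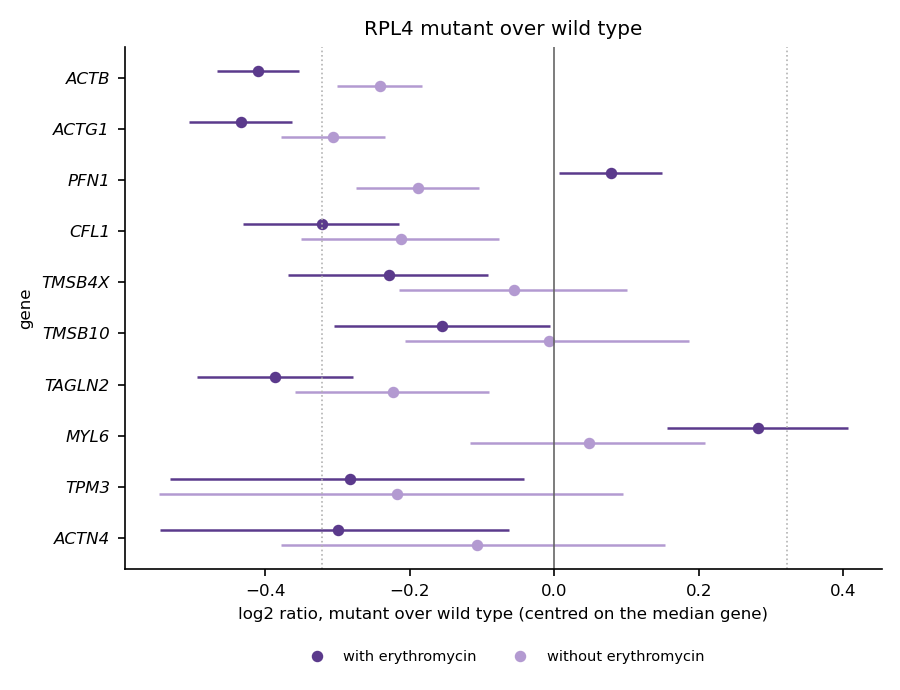
Log2 ratio of RPL4 mutant over wild type for each member with and without erythromycin, as points with 95% counting intervals, with dotted lines at 0.32 and −0.32. All members but PFN1 and MYL6 lie left of 0 with erythromycin, and MYL6 lies farthest right at 0.28.

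The rest of the actin machinery was described through 13 lists by role, with 109 genes of which 99 were tested, and the lowest and highest of each list are by mean mutant over wild type ratio among genes averaging 20 RPKM or more. Their median was −0.05 for erythromycin in the mutant and −0.00 in wild type, and −0.13 and −0.07 for mutant over wild type with and without erythromycin. In the mutant with erythromycin 36 of 99 genes were lower than in wild type with it by at least 0.32, and 19 were higher by as much, beside 26.1% and 28.5% of tested and 36.7% and 11.9% of abundant genes. Of the 99, 1 gene passed limma for genotype over all genes tested and 0 passed for erythromycin, where 1.95% and 0.25% of tested genes did.

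Of 9 genes of the Arp2/3 complex, which nucleates branched filaments, 7 were below 0 in the mutant in each treatment. So were 50.0% of tested genes and, with and without erythromycin, 68.3% and 66.1% of abundant genes. The medians were −0.13 with and −0.19 without erythromycin. ARPC3 was lowest, at 562 and 542 RPKM in the mutant with and without the drug, against 704 and 842 RPKM in wild type (limma −0.49, SE 0.18, adjusted p = 0.235). ARPC4 was highest, with log2 ratios of 0.63 with and −0.18 without the drug. It rested on 33 and 12 reads in the mutant with and without erythromycin, against 52 and 68 in wild type. Among 8 capping genes, which close filament ends, TMOD3 was lowest at −0.68 with and −0.47 without erythromycin, and CAPZA2 highest at 0.27 in each treatment.

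Of the 12 crosslinking and bundling genes tested, 6 were below 0 in the mutant with erythromycin and 10 without it, beside the same shares of all genes. By at least 0.32, 5 were lower and 3 higher with the drug, and 3 lower and 1 higher without it. Of tested genes, 26.1% were lower and 28.5% higher by as much with the drug, and 22.8% and 25.1% without it. Of abundant genes, 36.7% and 11.9% were with it, and 22.5% and 9.41% without it. MARCKS was lowest at −0.51 with and −0.61 without the drug. DBN1 was highest by its mean, at 0.95 with and −0.45 without it. It rested on 93 and 26 reads in the mutant with and without erythromycin, against 116 and 180 in wild type. Among 9 genes that link filaments to membranes and adhesions, vinculin (VCL), a textbook SRF target that anchors actin at adhesions, had the lowest values. VCL was at 23.9 and 34.0 RPKM in the mutant with and without erythromycin, against 40.9 and 76.6 RPKM in wild type. Its limma value for genotype was −0.96 (SE 0.269, adjusted p = 0.0907), which passed in 2 of 10 alternatives, and it was also lower with erythromycin, at −0.54 in the mutant and −0.87 in wild type. MSN, which ties filaments to the plasma membrane, was highest at 0.04 with and 0.60 without the drug.

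Among 7 genes of non-muscle myosin II other than MYL6, MYL9, a regulatory light chain, rose in the mutant by 1.65 (SE 0.318, limma, adjusted p = 0.00945) on few reads. It had 10 and 12 reads in the mutant with and without erythromycin, against 8 and 16 in wild type, where libraries were larger, or 19.4 and 38.2 RPKM against 6.03 and 10.4 RPKM. The call ended with no variance trend and with genotype alone in the model (highest limma adjusted p 0.164), and the gene was not tested at a mean of 20 RPKM or more. MYL12B, another regulatory light chain, was lowest at −0.89 with and −0.15 without the drug, and the heavy chain MYH10 was at 0.05 and 0.40.

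Of the remaining lists, monomer-binding genes other than the members had TWF2 lowest (−0.42 with and −0.53 without erythromycin) and TMSB15A highest (0.16 and 1.06, on 3 to 11 reads a library). In severing and turnover WDR1, a cofactor of cofilin, was lowest at −0.29 and −0.44, with CORO1C at −0.22 and −0.06. The calponins CNN3 (−0.71 and −0.25) and CNN2 (−0.10 and −0.05), the nucleation activators WASF1 (0.04 and −0.94) and WASF2 (−0.24 and 0.76), and the N-terminal acetyltransferase subunits NAA15 (−1.01 and −0.52) and NAA10 (−0.34 and −0.16) were the lowest and highest of their lists. WASF1 rested on 39 and 15 reads in the mutant with and without erythromycin, against 93 and 148 in wild type. None of the genes named in this paragraph passed limma over all genes tested. TMSB15A did so for genotype in reads thinned to the smallest library (limma, adjusted p = 0.00101, and up to 0.56 in other settings).

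The pattern of ACTB over the 4 libraries was set beside those of the 1720 other abundant genes, as the Euclidean distance of their log2 values less each gene's own mean. The closest were U2AF2 (distance 0.04), PUF60 (0.10), DAZAP2 (0.11), KHDRBS1 (0.11) and GAPDH (0.11). ACTG1 was the 8th closest at 0.12, while TMSB10 was 1346th and MYL6 1445th. GAPDH was at 4916 and 5995 RPKM in the mutant with and without erythromycin, against 5945 and 7475 RPKM in wild type.

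Promoters were searched for CArG boxes, the site that SRF binds, in the 250 bases before the start of each RefSeq promoter (GRCh38.p14). The table held 13 promoters of 9 members, all but ACTB. The box has 10 bases, reads the same on both strands, and was found in 1 member promoter, that of ACTG1, and in 407 of all 35116 promoters (1.16%). It begins 94 bases before the ACTG1 start. The stretch is shown because it holds the box found among the member promoters, which is in capitals (chr17:81512864-81512913, minus strand).
ACTG1 promoter: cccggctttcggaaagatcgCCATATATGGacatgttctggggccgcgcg
A match describes the letters and not binding, and footprints do not measure promoters.

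Some members overlap other genes on the annotation. The coding part of PFN1 overlaps ENO3, that of CFL1 overlaps MUS81 and SNX32 and that of TMSB10 overlaps TRABD2A, all on the opposite strand, and MYL6 overlaps MYL6B on the same strand. In all 4 libraries ENO3 was at or below 3.8 RPKM, MUS81 at or below 17.6, SNX32 at or below 1.66 and TRABD2A at or below 2.22 RPKM. MYL6B was at 88.3 and 71.2 RPKM in the mutant with and without erythromycin, against 67.4 and 71.5 RPKM in wild type. Its part in the MYL6 value was not tested.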

How the data were processed

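Each deposited file holds 1 value in RPKM per Ensembl transcript, as made by the authors, and transcripts absent from a file were read as 0. Cutadapt, STAR and GRCh38 appear in the submitters' processing notes, with no role or version. The counter, annotation and handling of multi-mapping reads are not given in these sources. Transcripts were matched to GENCODE 29. Library totals were inferred, each as the whole number that made the most reads whole. Which reads such a total counts is not known. RPKM times coding length (stop codon included) times this total gave whole reads, within 0.001, for 99.1% to 99.2% of listed transcripts with a length. It did so for all 10 members. As the total was chosen by that share, the share is no separate check of it.

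The 9612 genes averaging 5 RPKM or more were kept. Log2 ratios of RPKM + 1 were centred on their median, so a fold change is on that scale. Counting intervals are exact binomial for ratios of reads, and a normal approximation for differences of ratios and for ratios of sums. With 1 library per group these have no replicate check and no p. They were computed for members only, so no share of all genes stands beside them, and they narrow as reads increase. Limma 3.58.1 (R 4.3.3) was fitted to all genes with genotype, treatment and a variance trend on library-centred values, with Benjamini-Hochberg adjustment, and the interaction served as its error. It was tested on simulated reads that had counting error only, which cannot show how it handles variation between libraries. Members and lists were chosen with earlier results of these data known. All members are named. Of each other list, the genes named are the highest and lowest by mean mutant over wild type ratio among those averaging 20 RPKM or more, and any that passed limma. The genes of 1 list are not reported here. Alternatives covered the pseudocount, filter, scaling, depth and model. Depth was tried with 1 random thinning of the reads, so values from it depend on that draw.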

Additional observations from a re-analysis of the deposited data

Results flagged for a closer look

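PFN1 lay on opposite sides of 0 in the 2 treatments for mutant over wild type, with counting intervals that excluded 0 in each: 0.08 with erythromycin and −0.19 without it, as log2 ratios. The difference was not tested against replicates, as there is 1 library per group. Neither sign changed under alternatives, but the sizes depend on centring. Without erythromycin the value was −0.05 when centred on abundant genes, and with erythromycin it was 0.03 with no filter. The intervals given are those of the main scaling, and the share of all genes with such a pair of intervals was not counted.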

How the results depend on the processing

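No paired analysis was possible because each group has 1 library and the labels give no pairing. The median of the members moved past the counting error in 3 cases: for erythromycin in wild type to −0.10 in reads thinned to the smallest library, and for mutant over wild type with erythromycin to −0.11 centred on abundant genes (averaging 100 RPKM or more) and to −0.15 with RPKM scaled to a common sum. In limma 0 members passed for genotype under all 10 alternatives, and for erythromycin 1 passed (ACTG1) in thinned reads and 0 under the other 9. Over all genes, calls for genotype numbered 187, against 284 with a pseudocount of 0.1 RPKM, 341 with no filter, 91 with no variance trend and 54 with genotype alone. Centring on abundant genes gave 191 higher and 5 lower, and a common sum 146 and 4, against 160 and 27. Calls for erythromycin numbered 24, against 68 with a pseudocount of 0.1 RPKM, 99 with no filter, 42 in genes averaging 20 RPKM or more, 80 in thinned reads, 14 with a common sum, and 0 with no variance trend or with treatment alone. The cause was not tested. Members lower by at least 0.32 (log2) in the mutant with erythromycin numbered 4, against 6 with no filter and 0 in genes averaging 20 RPKM or more, with centring on abundant genes or with a common sum. Of 400 single values of members under alternatives, 365 moved by less than their counting error and 12 changed sign, and of those 0 were past 0.32 and 0 were of ACTB or ACTG1. The limma values for genotype of PFN1, TMSB4X and TMSB10 changed sign under 1 or more scalings or filters. Depth limits TPM3 and ACTN4 most, with 96 and 141 reads in the smallest library.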
